A study of Homo sapiens with 12 samples.

Results

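The genes described here are 38 human genes of DNA replication and S phase, chosen by name as components of the replication machinery, its nucleotide supply and its control at the G1/S transition. They were listed with earlier results of these data known, so that the shares below describe this list and not replication genes at large. Their symbols were looked up among the 47634 Ensembl gene IDs counted in each of 12 libraries of HepG2 cells, a human hepatocellular carcinoma line, and 37 of them were found. The expression of UHRF1 was not analysed here, and its promoter is among those searched below. The libraries form 4 groups of 3: ATP7B KO cells given copper for 24 h, ATP7B KO cells left untreated, wild type HepG2 cells given copper for 24 h, and wild type cells left untreated. ATP7B encodes the copper-exporting ATPase mutated in Wilson disease, and the KO cells are HepG2 cells in which it was knocked out. The labels name no other alteration and do not say how many KO lines or clones were used. The effect of the genotype and that of a line or clone therefore cannot be told apart. Below, "the lines" means KO cells and wild type cells. The copper dose and the position and manner of the edit are not given. RNA was counted with a 3′ mRNA kit that yields about 1 fragment per transcript, and levels are counts scaled to a common library total (CPM), which for such a kit do not depend on transcript length. The labels call the libraries biological replicates without saying what separates them, so the p-values measure the spread between these samples.

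DNA replication begins in G1 phase, when the origin recognition complex (ORC), CDC6 and CDT1 load the MCM2 to MCM7 helicase rings onto chromatin. At the start of S phase, CDC45 and the GINS complex join the rings, with MCM10, and turn them into the active helicase. Polymerase alpha with primase starts each strand, and polymerases delta and epsilon extend it with the sliding clamp PCNA and its loader, replication factor C (RFC). Most of these genes are transcribed in late G1 by E2F factors, whose first member, E2F1, is itself an E2F target. Hepatocytes in the adult liver seldom divide, whereas HepG2 cells divide continuously in culture.

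Promoter sequence from RefSeq (GRCh38.p14, 250 bases before the annotated start to 50 bases after it) was at hand for 31 of the 38 genes. The E2F words TTTGGCGC, TTTCCCGC, TTTGCCGC and TTTCGCGC, searched on both strands, occurred in 18 of these 31 promoters (58.1%) and in 3.33% of 27305 human promoters of the same length. The CCAAT box, searched independently so that sites may overlap, occurred in 58.1% of the 31 and in 35.7% of all promoters. The words TTTGAA and TTCGAA of the cell cycle genes homology region, an element of mitotic promoters, occurred in 6.45% of the 31 and in 16.6% of all. Among 25 promoters of mitosis genes the shares were 12% for the E2F words, 84.0% for CCAAT and 80.0% for the homology region. The 2 promoters printed here belong to genes that were higher in ATP7B KO cells in both treatments with every processing tried. Capitals mark E2F words and CCAAT boxes on either strand.
CDC6, chr17:40287629-40287928, plus strand: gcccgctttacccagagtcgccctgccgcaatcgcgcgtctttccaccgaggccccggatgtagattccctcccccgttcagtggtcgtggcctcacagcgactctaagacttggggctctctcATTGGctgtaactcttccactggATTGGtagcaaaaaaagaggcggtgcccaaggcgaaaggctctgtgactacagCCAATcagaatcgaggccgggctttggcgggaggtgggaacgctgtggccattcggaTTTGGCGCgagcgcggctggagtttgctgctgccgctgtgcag
GINS3, chr16:58392221-58392520, plus strand: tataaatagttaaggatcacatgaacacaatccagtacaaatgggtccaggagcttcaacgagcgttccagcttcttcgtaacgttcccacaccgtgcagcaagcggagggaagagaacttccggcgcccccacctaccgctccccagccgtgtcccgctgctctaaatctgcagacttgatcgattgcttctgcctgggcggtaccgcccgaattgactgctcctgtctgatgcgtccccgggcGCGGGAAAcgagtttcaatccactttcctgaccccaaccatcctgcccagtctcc
The E2F word of CDC6 begins 7 bases after the start, and its promoter holds 3 CCAAT boxes. The E2F word of GINS3 begins 5 bases before the start, reads TTTCCCGC on the other strand, and stands in a window without a CCAAT box. Among the 30 of these promoters whose genes were counted, an E2F word stood in 2 of 4 promoters of genes that rose in KO cells in both treatments, in 7 of 14 of those that rose in 1 treatment and in 8 of 12 of those that rose in neither. A match to these letters is a description of the window and not a bound site.

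The libraries held 976658 to 3829151 counts. ATP7B KO untreated replicates 1 and 2 (1443372 and 976658 counts) and wild type copper replicate 1 (1873703 counts) stood apart from the other 9 libraries. Their scores along the leading principal component, which held 38.6% of the variance, were 115.83, 128.44 and 22.53, and the scores of the others were negative. Within the KO untreated group, replicates 1 and 2 were nearer to each other (correlation of log2 CPM 0.91) than to replicate 3 (0.818 and 0.789). In that group replicate 3 is thus the library that differs, and which of the 3 is typical of these cells was not tested. Relative to the rest of their groups, 18 of the 37 replication genes were lower in all 3 of these libraries (48.6%, against 36.2% of all genes tested) and 6 were higher in all 3 (MCM4, MCM5, MCM7, MCM10, POLA1 and CCNE2, 16.2%, against 26.6%). For KO untreated replicates 1 and 2 the rest is replicate 3 alone, so that their deviations share 1 reference and are not separate. The median deviation of the replication genes was -0.61 and -0.48 on the log2 scale in KO untreated replicates 1 and 2 and -0.20 in wild type copper replicate 1, against -0.20, -0.21 and -0.04 for all genes. Counts, and values of many but not all genes whose calls turn on these libraries, are also given without them. There KO untreated replicate 3 stands alone and is assumed to vary like the other groups, so that adjusted p-values from that fit may be too small. The part of depth or RNA quality in these deviations was not tested.

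ATP7B itself was at 3.92, 4.19 and 6.77 CPM in KO copper libraries and 9.01, 2.05 and 11.6 CPM in KO untreated libraries, against 5.34, 3.92 and 3.87 CPM in wild type copper and 12.7, 13.1 and 12.3 CPM in wild type untreated libraries. Where ATP7B was edited is unknown here, so reads at its 3′ end do not check the KO label. All 9 hepatocyte and HepG2 markers were detected in every group, with a summed level of 3302 to 3491 CPM in KO copper, 7156 to 9072 in KO untreated, 7280 to 8345 in wild type copper and 15770 to 16640 in wild type untreated libraries. The leukocyte marker PTPRC had 0 counts in 11 libraries and 1 count in the other one, and the 9 markers of other cell types summed to 207.7 to 287.4, 263.3 to 533.4, 330.9 to 871.8 and 1393 to 1516 CPM in the same order of groups, most of it LYZ. The part of these marker differences in the results below was not tested.

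All 37 replication genes passed the filter on low counts. Their total over the 12 libraries ran from 117 to 7755 counts, and 8 had fewer than 300. Summed over the 37 genes, the level was 2744, 2628 and 2719 CPM in KO copper libraries and 3214, 3302 and 3218 CPM in KO untreated libraries, against 1610, 1623 and 1645 CPM in wild type copper and 1657, 1703 and 1699 CPM in wild type untreated libraries. The KO libraries lay above all wild type libraries in both treatments. MCM3, MCM4 and MCM5 held 44.4% of that sum in KO untreated cells, against 19.1% to 28.0% in the other groups. Without these 3 genes, chosen after their values were seen, the sum was 2115 to 2240 CPM in KO copper and 1449 to 2340 CPM in KO untreated, against 1032 to 1266 CPM in wild type copper and 1219 to 1259 CPM in wild type untreated libraries, and the KO libraries still lay above all wild type libraries. A bulk library cannot tell a larger share of cells in S phase from more RNA of these genes per cell.

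**Figure D1:**
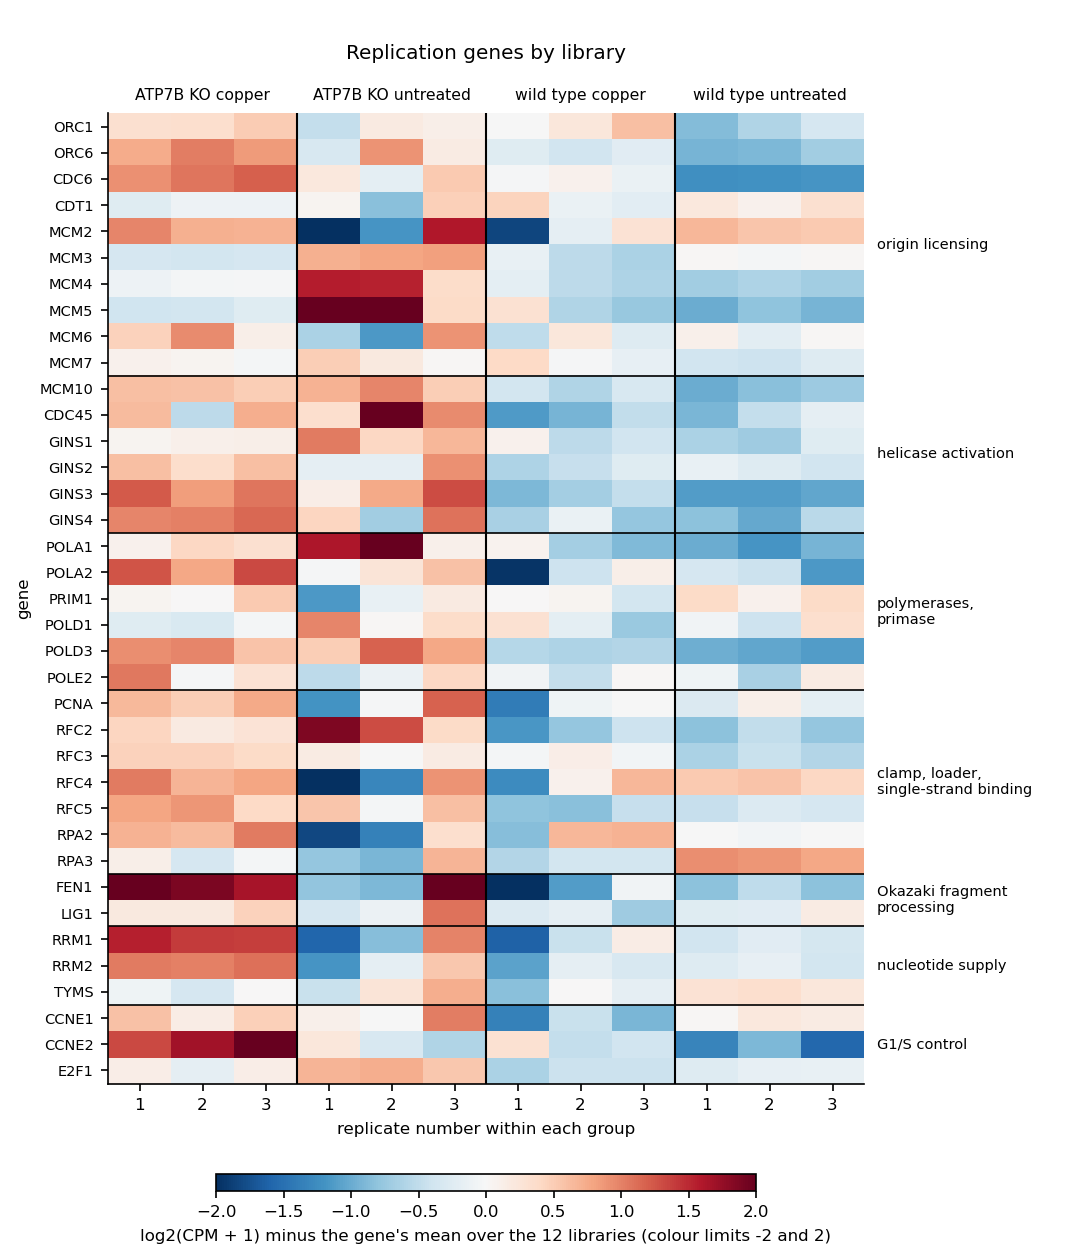
Levels of the 37 replication genes (rows, grouped by role) in the 12 libraries (columns, replicate number within each group). Colour is log2(CPM + 1) minus the gene's mean over the 12 libraries. Most genes are above their mean in the ATP7B KO groups and below it in the wild type groups, and KO untreated replicates 1 and 2 differ from replicate 3 for genes such as MCM5, RFC4, RPA2 and FEN1.

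Set against wild type cells of the same treatment, the replication genes were mostly higher in ATP7B KO cells. Untreated, 15 of 37 rose and 1 fell, with a median log2 fold change of 0.55 and 30 of 37 above 0. Of the 11051 genes tested, 17.9% rose and 14.0% fell in that comparison, with a median of -0.02. In copper, 14 of 37 rose and none fell by edgeR, with a median of 0.82 and 33 of 37 above 0, while 5.77% of all genes rose and 8.03% fell, with a median of 0.05. At an unadjusted p under 0.05 there were 18 genes above 0 and 0 below 0 in copper, against 1549 and 1705 of all 11051 genes. DESeq2 and limma voom also called 0 that fell there. The 3 KO libraries were all above the 3 wild type libraries for 18 of the 37 genes untreated and for 24 of the 37 in copper, against 25.7% and 26.4% of all genes. The number that rose untreated was 9 without wild type untreated replicate 1, where 10% of all genes rose. In copper it was 8 without wild type copper replicate 1 or 2 (3.2% and 2.55% of all genes) and 9 without any 1 of the KO copper replicates (2.17% to 2.59%). Without KO untreated replicate 3, 16 rose and 6 fell in the untreated comparison, where 28.8% of all genes rose and 30.1% fell. The 1 that fell with all libraries was not called without any other KO or wild type untreated replicate.

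The 2 comparisons share no library. CDC6, GINS3, GINS4, MCM10, ORC6 and POLD3 rose in KO cells in both, 9 genes rose in the untreated comparison alone, 8 in the copper comparison alone, and 14 in neither. Log2 fold changes were above 0 in both comparisons for 27 of the 37 genes (73.0%), against 27.9% of all genes tested. Without the libraries that stood apart, 26 of the 37 genes rose untreated and 23 in copper, while 16.8% and 17.3% of all genes rose, and 0 of the 37 fell in either by edgeR, while 17.7% and 20.6% of all genes fell. The genes called there and not with all libraries were MCM2, MCM6, GINS2, PCNA, RFC5, POLA2, FEN1, LIG1, RRM1, RRM2 and CCNE1 untreated and MCM2, MCM4, CDC45, PCNA, RFC2, RFC3, POLA1, LIG1 and E2F1 in copper. With all libraries, in no comparison of the 5 was a call made for CDT1, LIG1, MCM2, MCM6, MCM7, PCNA, POLD1, POLE2, PRIM1, RFC4 or TYMS, which does not show that they did not differ. Of these, CDT1, LIG1, MCM2, MCM6, MCM7, PCNA and TYMS were each called in at least 1 comparison without the libraries that stood apart.

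**Figure D2:**
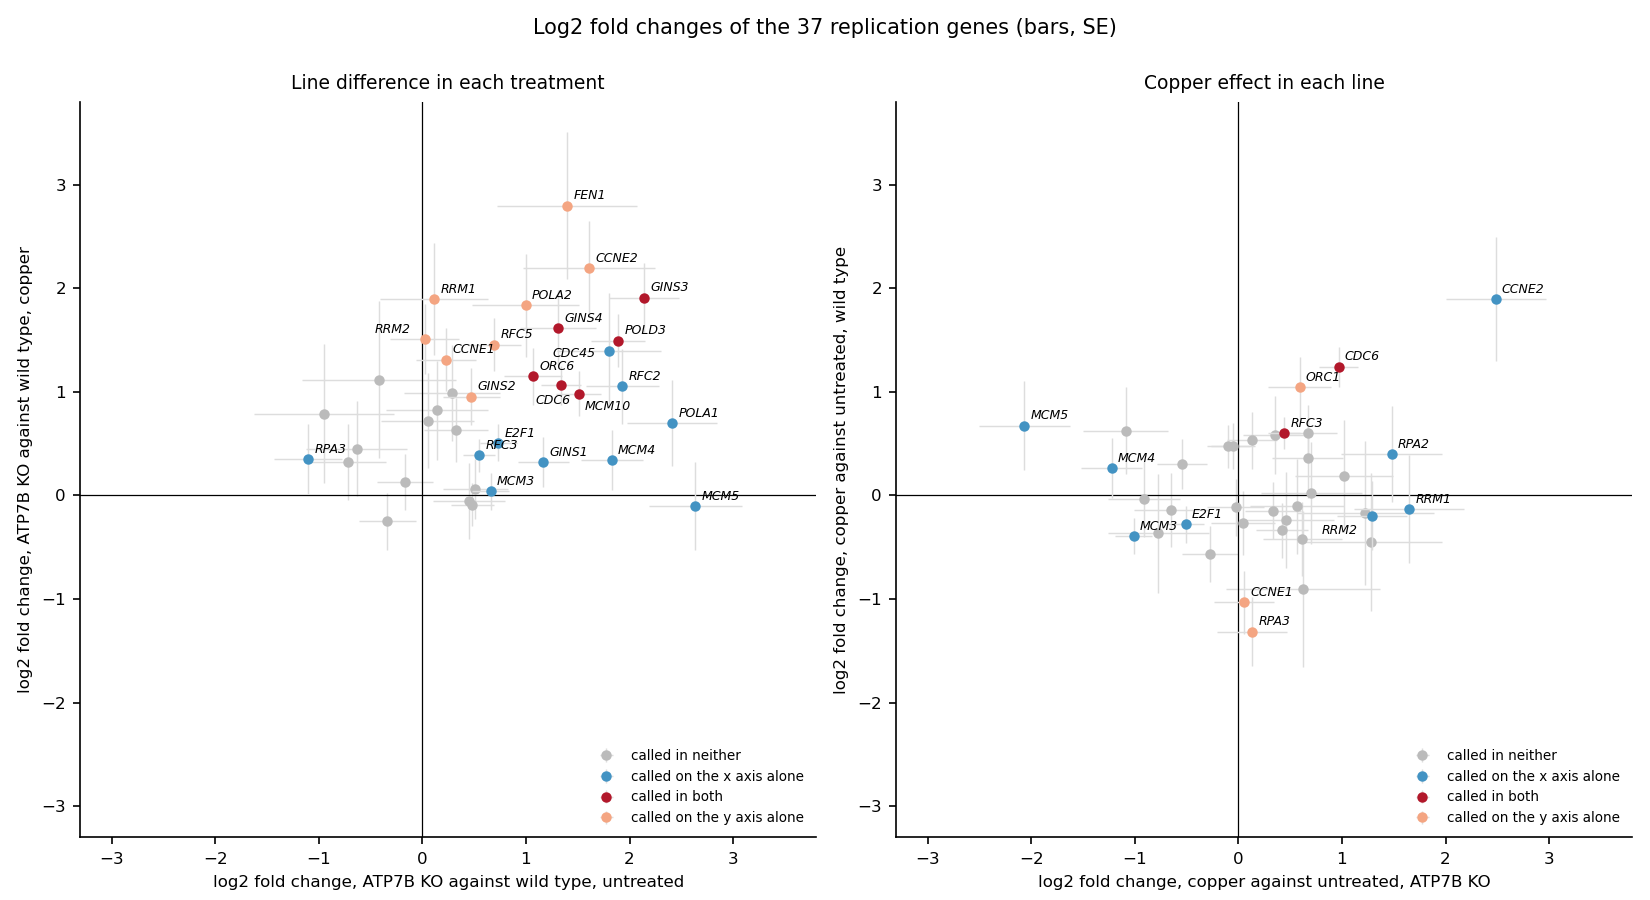
Log2 fold changes of the 37 replication genes with SE bars. Left, ATP7B KO against wild type untreated (x axis) and in copper (y axis), where 27 genes lie above 0 on both axes. Right, copper against untreated in ATP7B KO (x axis) and in wild type cells (y axis), where CDC6 and RFC3 were called in both lines. Colour marks an adjusted p under 0.05 on both axes, on 1 axis or on neither.

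Among the licensing factors, CDC6, the ATPase that recruits the helicase rings to ORC, was the 1 gene called in all 4 pairwise comparisons with all libraries, and each call held in the 19 alternatives. It was at 94, 105 and 114 CPM in ATP7B KO copper libraries and 57.5, 43 and 72 CPM in ATP7B KO untreated libraries. Wild type libraries were at 48.6, 52.7 and 44.9 CPM in copper and 20.6, 20.9 and 21.3 CPM untreated. The 3 libraries of each KO group were all above those of the wild type group with the same treatment, and copper libraries were all above untreated ones in each line. CDC6 rose in KO cells untreated (log2 fold change 1.34 ± 0.20 SE, adjusted p = 0.00073) and in copper (1.06 ± 0.19, adjusted p = 0.00359), and it rose with copper in KO cells (0.97 ± 0.19, adjusted p = 0.0026) and in wild type cells (1.24 ± 0.19, adjusted p = 0.00161).

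ORC6, a small ORC subunit, was at 63.4, 76.6 and 68.1 CPM in ATP7B KO copper libraries and 29.8, 70.7 and 42.1 CPM in ATP7B KO untreated libraries. In wild type cells it was at 31.5, 28.3 and 31.8 CPM with copper and 19.2, 19.6 and 22.7 CPM untreated. The KO libraries were above the wild type libraries in both treatments. It rose in KO cells untreated (log2 fold change 1.07 ± 0.28 SE, adjusted p = 0.014) and in copper (1.15 ± 0.28, adjusted p = 0.0165). The untreated call was lost on leaving out any 1 of wild type untreated replicates 1 and 2 (adjusted p from 0.0548 to 0.0576), and the copper call on leaving out any 1 of ATP7B KO copper replicate 2 and wild type copper replicate 2 (adjusted p from 0.0665 to 0.071). ORC1, the ATPase subunit of ORC, was at 8.01, 9.59 and 12.8 CPM in wild type copper libraries, against 3.95, 4.96 and 6.18 CPM in wild type untreated libraries, and rose with copper there (log2 fold change 1.04 ± 0.30 SE, adjusted p = 0.0345). The ORC1 call was lost on leaving out any 1 of ATP7B KO copper replicates 1, 2 and 3, wild type copper replicates 2 and 3 and wild type untreated replicates 1, 2 and 3 (adjusted p from 0.0539 to 0.15). CDT1, the loading factor that geminin inhibits, was at 108 ± 6.02 CPM in ATP7B KO copper and 119 ± 50.2 CPM in ATP7B KO untreated libraries, against 125 ± 33.5 CPM in wild type copper and 138 ± 11.3 CPM in wild type untreated libraries (mean ± SD, n = 3), and its groups overlapped in every comparison. Without the libraries that stood apart, the log2 fold change of CDT1 with copper was -0.45 ± 0.13 SE in KO cells and -0.325 ± 0.11 in wild type cells.

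Of the 6 subunits of the MCM2 to MCM7 ring, MCM3, MCM4 and MCM5 rose in untreated KO cells with all libraries, and MCM2 to MCM6 without those that stood apart. MCM5 was at 101, 103 and 113 CPM in the copper libraries of ATP7B KO cells and 665, 574 and 174 CPM in their untreated libraries. Its wild type levels were 165, 87.1 and 78.2 CPM in copper and 66.4, 76 and 69.3 CPM untreated. KO untreated libraries were above all others, with replicate 3 far below replicates 1 and 2. MCM5 rose in untreated KO cells (log2 fold change 2.64 ± 0.45 SE, adjusted p = 0.00179), and the copper comparison gave -0.10 ± 0.43, adjusted p = 0.898, with overlapping groups. Leaving out the libraries that stood apart gave 1.10 ± 0.13, adjusted p = 2.91e-08 untreated.

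MCM4 was at 234, 245 and 248 CPM in ATP7B KO libraries given copper and 750.3, 738 and 326 CPM in untreated ones. The wild type libraries held 220.4, 176 and 165 CPM with copper and 155, 164 and 156 CPM without. It rose in untreated KO cells (log2 fold change 1.83 ± 0.30 SE, adjusted p = 0.00147), in copper the difference was 0.34 ± 0.29, adjusted p = 0.472, and without the libraries that stood apart these were 0.84 ± 0.11, adjusted p = 2.79e-07 and 0.43 ± 0.10, adjusted p = 0.000738. MCM3 was at 168, 165 and 168 CPM in ATP7B KO copper libraries and 349.9, 369 and 378 CPM in ATP7B KO untreated libraries. Levels in wild type cells were 192, 148 and 137 CPM in copper and 216, 206 and 215 CPM untreated. Its KO untreated libraries, the 2 that stood apart among them, lay within a narrow range above every other library. MCM3 rose in untreated KO cells (log2 fold change 0.66 ± 0.18 SE, adjusted p = 0.0153), a call that was lost on leaving out any 1 of wild type untreated replicates 1 and 2 (adjusted p from 0.0572 to 0.0644), and in copper it was at 0.04 ± 0.18, adjusted p = 0.907. MCM3 was at 0.63 ± 0.11, adjusted p = 3.42e-05 untreated without the libraries that stood apart.

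MCM2 was at 80.5, 67 and 66.1 CPM in ATP7B KO copper libraries and 4.85, 17.4 and 125 CPM in ATP7B KO untreated libraries, against 10.7, 35.7 and 49.6 CPM in wild type copper and 65.1, 60.3 and 59 CPM in wild type untreated libraries. The 3 libraries that stood apart held its lowest levels and KO untreated replicate 3 its highest. MCM2 was at -0.42 ± 0.74, adjusted p = 0.681 in untreated KO cells with all libraries and at 0.82 ± 0.15, adjusted p = 6.02e-05 without those that stood apart, which turns the direction. In copper these were 1.11 ± 0.76, adjusted p = 0.357 and 0.65 ± 0.15, adjusted p = 0.00085. MCM6 and MCM7 gave no call with all libraries, with MCM7 at 0.48 ± 0.21 untreated and -0.09 ± 0.21 in copper and MCM6 at 0.05 ± 0.45 and 0.72 ± 0.46. MCM6 rose untreated without the libraries that stood apart, at 0.81 ± 0.32, adjusted p = 0.0445, and MCM7 was at 0.18 ± 0.14, adjusted p = 0.348. Reads of MCM2 and MCM7 are uncertain where TPRA1 and AP4M1 overlap them on the other strand, since the strand setting of the counting is not given.

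Of 6 factors that activate the helicase, 5 rose in untreated KO cells (83.3%, against 17.9% of all genes) and 4 in copper (66.7%, against 5.77%). All 6 had log2 fold changes above 0 in both comparisons (medians 1.41 and 1.19). GINS3, a subunit of the GINS complex, was at 17.4, 13 and 15.5 CPM in ATP7B KO copper libraries and 7.62, 12.3 and 18.3 CPM in ATP7B KO untreated libraries. Wild type libraries were at 3.20, 3.92 and 4.65 CPM in copper and 2.64, 2.61 and 2.81 CPM untreated. The KO libraries were above all wild type libraries. GINS3 rose in KO cells untreated (log2 fold change 2.14 ± 0.34 SE, adjusted p = 0.00126) and in copper (1.91 ± 0.34, adjusted p = 0.00328), and both calls held in all 19 alternatives.

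MCM10, which helps to activate the helicase and keeps polymerase alpha at the fork, was at 42.4, 42.3 and 39.4 CPM in ATP7B KO copper libraries and 45.7, 55.3 and 39.4 CPM in ATP7B KO untreated libraries. In wild type cells it was at 21.4, 17.9 and 22.1 CPM with copper and 13.4, 15.2 and 16.3 CPM untreated. No KO library overlapped a wild type one. It rose in KO cells untreated (log2 fold change 1.51 ± 0.22 SE, adjusted p = 0.000675) and in copper (0.98 ± 0.21, adjusted p = 0.0105), where the call was lost on leaving out wild type copper replicate 2 (adjusted p = 0.0524). GINS4 was at 21.7, 22.2 and 24.7 CPM in the copper libraries of ATP7B KO cells and 14.6, 6.14 and 23.5 CPM in their untreated libraries. Its wild type levels were 6.40, 9.59 and 5.81 CPM in copper and 5.54, 4.70 and 7.02 CPM untreated. It rose in KO cells in copper (log2 fold change 1.62 ± 0.36 SE, adjusted p = 0.0118), with no overlap, and untreated (1.31 ± 0.36, adjusted p = 0.0184), where KO replicate 2 lay within the wild type range. The untreated call was lost on leaving out any 1 of ATP7B KO untreated replicate 3 and wild type untreated replicates 1 and 2 (adjusted p from 0.0636 to 0.0819).

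GINS1 was at 32.4, 33.5 and 33.8 CPM in ATP7B KO libraries given copper and 65.1, 42 and 50.04 CPM in untreated ones. The wild type libraries held 33.1, 21.4 and 23.6 CPM with copper and 19.8, 18.5 and 26.1 CPM without. It rose in untreated KO cells (log2 fold change 1.17 ± 0.24 SE, adjusted p = 0.00484), and in copper it was at 0.32 ± 0.24, adjusted p = 0.414 with overlapping groups. CDC45, the helicase component that stays with the ring at the fork, was at 9.62, 3.77 and 10.3 CPM in ATP7B KO copper libraries and 7.62, 26.6 and 12.2 CPM in ATP7B KO untreated libraries. Levels in wild type cells were 2.13, 2.61 and 3.87 CPM in copper and 2.64, 3.92 and 5.05 CPM untreated. Its levels were low and its KO untreated replicates differed widely. CDC45 rose in untreated KO cells (log2 fold change 1.80 ± 0.51 SE, adjusted p = 0.0187), a call that was lost on leaving out any 1 of ATP7B KO untreated replicate 2 and wild type untreated replicates 1 and 2 (adjusted p from 0.059 to 0.0768). GINS2 rose in KO cells in copper (log2 fold change 0.95 ± 0.28 SE, adjusted p = 0.0394), at 41.3, 34.3 and 41 CPM in KO copper libraries, against 17.1, 19.2 and 22.5 CPM in wild type copper libraries. That call was lost on leaving out any 1 of ATP7B KO copper replicates 1, 2 and 3, wild type copper replicates 1, 2 and 3 and wild type untreated replicates 1, 2 and 3 (adjusted p from 0.0602 to 0.139), and GSE1 overlaps GINS2 on the other strand. Untreated, GINS2 was at 0.47 ± 0.27, adjusted p = 0.196 with all libraries and at 1.02 ± 0.19, adjusted p = 7.80e-05 without those that stood apart.

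Of 6 polymerase and primase genes, 2 rose in KO cells untreated (POLA1 and POLD3) and 2 in copper (POLA2 and POLD3). These shares were 33.3% each, against 17.9% of all genes untreated and 5.77% in copper. POLD3, an accessory subunit of polymerase delta, was at 27.4, 28.5 and 21.1 CPM in ATP7B KO copper libraries and 20.1, 32.8 and 24.4 CPM in ATP7B KO untreated libraries, against 9.07, 8.71 and 8.91 CPM in wild type copper and 6.59, 6.27 and 5.90 CPM in wild type untreated libraries. The KO libraries were above all wild type libraries. POLD3 rose in KO cells untreated (log2 fold change 1.89 ± 0.26 SE, adjusted p = 0.000564) and in copper (1.50 ± 0.26, adjusted p = 0.00298), and both calls held in all 19 alternatives. POLA1, the catalytic subunit of polymerase alpha, was at 79.4, 100.5 and 94.4 CPM in ATP7B KO copper libraries and 231, 312 and 80.9 CPM in ATP7B KO untreated libraries. Wild type libraries were at 78.5, 46.2 and 40.3 CPM in copper and 37.2, 32.6 and 39 CPM untreated. The 2 KO untreated libraries that stood apart held its highest levels, and wild type copper replicate 1 was above the other wild type libraries. POLA1 rose in untreated KO cells (log2 fold change 2.41 ± 0.43 SE, adjusted p = 0.00236), and without the libraries that stood apart it was at 0.96 ± 0.17, adjusted p = 1.87e-05 untreated and at 0.99 ± 0.15, adjusted p = 9.42e-07 in copper.

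POLA2, the regulatory subunit of polymerase alpha, was at 13.2, 9.21 and 13.9 CPM in ATP7B KO copper libraries and 4.85, 6.14 and 7.93 CPM in ATP7B KO untreated libraries. In wild type cells it was at 0.534, 3.49 and 5.42 CPM with copper and 3.69, 3.40 and 1.69 CPM untreated. In copper the KO libraries were all above the wild type libraries, whose replicate 1 was at the level of 1 count. POLA2 rose in KO cells in copper (log2 fold change 1.83 ± 0.50 SE, adjusted p = 0.0294), a call that was lost on leaving out any 1 of ATP7B KO copper replicates 1, 2 and 3, wild type copper replicates 1 and 2 and wild type untreated replicate 2 (adjusted p from 0.0507 to 0.106). The catalytic subunit of polymerase delta, POLD1, was at 0.45 ± 0.35 untreated and -0.06 ± 0.37 in copper on the log2 scale. POLE2 of polymerase epsilon was at 0.14 ± 0.49 and 0.82 ± 0.48, and PRIM1 of primase at -0.72 ± 0.37 and 0.32 ± 0.37. None of these 3 was called. Reads of POLD3 and PRIM1 are uncertain where AP001372.2 and NACA overlap them on the same strand and HSD17B6 overlaps PRIM1 on the other.

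The clamp, its loader and the single-strand binding proteins were mixed. RFC2, a loader subunit, was at 37.8, 31.4 and 33.4 CPM in the copper libraries of ATP7B KO cells and 104, 69.6 and 36.3 CPM in their untreated libraries. Its wild type levels were 11.7, 15.7 and 20.5 CPM in copper and 15.3, 19.3 and 15.7 CPM untreated. The KO libraries were above the wild type libraries in both treatments, and KO untreated replicates 1 and 2 were highest. RFC2 rose in untreated KO cells (log2 fold change 1.93 ± 0.36 SE, adjusted p = 0.00273), in copper it was at 1.05 ± 0.36, adjusted p = 0.0712, and without the libraries that stood apart these were 0.91 ± 0.22, adjusted p = 0.00144 and 0.83 ± 0.20, adjusted p = 0.00143. RFC5 was at 26.4, 28.1 and 19.9 CPM in KO copper libraries, against 8.01, 7.84 and 10.5 CPM in wild type copper libraries, and rose in KO cells in copper (log2 fold change 1.46 ± 0.26 SE, adjusted p = 0.00363). It was at 0.70 ± 0.25, adjusted p = 0.0525 untreated, and at 0.81 ± 0.26, adjusted p = 0.0156 without the libraries that stood apart. WSB2 overlaps RFC5 on the other strand, so that shared reads are uncertain.

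RFC3 was at 130.4, 131 and 123 CPM in ATP7B KO libraries given copper and 106, 94.2 and 107 CPM in untreated ones. The wild type libraries held 92.3, 104 and 91.4 CPM with copper and 60.9, 68.9 and 62.9 CPM without. Its groups did not overlap in any of the 4 pairwise comparisons. RFC3 rose in untreated KO cells (log2 fold change 0.55 ± 0.16 SE, adjusted p = 0.0212), a call that was lost on leaving out any 1 of ATP7B KO untreated replicate 1 and wild type untreated replicates 1, 2 and 3 (adjusted p from 0.0539 to 0.0962). It also rose with copper in KO cells (0.44 ± 0.16, adjusted p = 0.0476) and in wild type cells (0.60 ± 0.16, adjusted p = 0.0239). The copper call in KO cells was lost on leaving out any 1 of ATP7B KO copper replicates 1, 2 and 3, ATP7B KO untreated replicates 1, 2 and 3, wild type copper replicates 2 and 3 and wild type untreated replicates 1, 2 and 3 (adjusted p from 0.0545 to 0.128), and that in wild type cells on leaving out any 1 of wild type copper replicate 2 and wild type untreated replicates 1, 2 and 3 (adjusted p from 0.0675 to 0.113).

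PCNA, the sliding clamp, was at 122, 109.7 and 131 CPM in ATP7B KO copper libraries and 33.3, 75.8 and 177 CPM in ATP7B KO untreated libraries. Levels in wild type cells were 28.8, 73.2 and 76.7 CPM in copper and 63, 83.8 and 67.4 CPM untreated. In copper the KO libraries were above the wild type libraries, and untreated KO replicates 1 and 3 lay on either side of them. PCNA was at 0.29 ± 0.46, adjusted p = 0.649 untreated and 0.99 ± 0.46, adjusted p = 0.178 in copper, and without the libraries that stood apart at 1.11 ± 0.14, adjusted p = 9.21e-08 and 0.60 ± 0.13, adjusted p = 0.000315. RFC4 was at 139, 109 and 117 CPM in ATP7B KO copper libraries and 6.93, 26.6 and 127 CPM in ATP7B KO untreated libraries, against 27.8, 71.5 and 108 CPM in wild type copper and 97.5, 100.5 and 90.1 CPM in wild type untreated libraries. The range within KO untreated libraries was wider than any difference between group means, and RFC4 gave no call. Its reads are uncertain where EIF4A2 overlaps it on the other strand.

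RPA3, the small subunit of the single-strand binding protein RPA, was the 1 replication gene that fell in untreated KO cells, and UMAD1 overlaps it on the other strand. It was at 30.3, 21.8 and 27.1 CPM in ATP7B KO copper libraries and 15.9, 14.3 and 45.2 CPM in ATP7B KO untreated libraries. Wild type libraries were at 18.1, 21.4 and 21.3 CPM in copper and 53.8, 52.2 and 48.3 CPM untreated. The wild type untreated libraries were above all others. RPA3 fell in untreated KO cells (log2 fold change -1.10 ± 0.33 SE, adjusted p = 0.025) and with copper in wild type cells (-1.31 ± 0.33, adjusted p = 0.021). The first call was lost on leaving out any 1 of ATP7B KO untreated replicates 1 and 2 and wild type untreated replicates 1, 2 and 3 (adjusted p from 0.0523 to 0.0855), and also without the libraries that stood apart (-0.39 ± 0.19, adjusted p = 0.103), and the second on leaving out any 1 of wild type copper replicates 1, 2 and 3 and wild type untreated replicates 1, 2 and 3 (adjusted p from 0.0507 to 0.0736).

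RPA2, the middle subunit of RPA, was at 28.5, 27.2 and 36.2 CPM in ATP7B KO copper libraries and 4.16, 6.14 and 22 CPM in ATP7B KO untreated libraries. In wild type cells it was at 9.07, 27.9 and 28.3 CPM with copper and 17.1, 16.4 and 17.1 CPM untreated. The 3 libraries that stood apart held its lowest levels. RPA2 rose with copper in KO cells (log2 fold change 1.48 ± 0.49 SE, adjusted p = 0.0346), and the difference was 0.66 ± 0.23, adjusted p = 0.0239 without the libraries that stood apart. That call was lost on leaving out any 1 of ATP7B KO copper replicates 1, 2 and 3, ATP7B KO untreated replicates 1 and 2 and wild type untreated replicates 1, 2 and 3 (adjusted p from 0.0502 to 0.101).

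FEN1, the nuclease that trims Okazaki fragments, had the largest log2 fold change of the 37 genes between the lines in copper with all libraries, and without those that stood apart CCNE2 had a larger one (2.52 ± 0.48, adjusted p = 5.47e-05). It was at 149, 133 and 113 CPM in the copper libraries of ATP7B KO cells and 20.1, 18.4 and 143 CPM in their untreated libraries. Its wild type levels were 5.34, 15.7 and 33.7 CPM in copper and 19.5, 24.6 and 19.6 CPM untreated. The KO copper libraries and KO untreated replicate 3 were several times above all others. FEN1 rose in KO cells in copper (log2 fold change 2.80 ± 0.71 SE, adjusted p = 0.0222), and it was at 1.40 ± 0.68, adjusted p = 0.128 untreated, where the groups overlapped. The copper call was lost on leaving out any 1 of ATP7B KO copper replicates 1, 2 and 3 and wild type copper replicates 1 and 2 (adjusted p from 0.0522 to 0.0907). Without the libraries that stood apart the differences were 2.31 ± 0.22, adjusted p = 5.83e-07 in copper and 2.55 ± 0.23, adjusted p = 3.06e-07 untreated. TMEM258 on the other strand and FADS2 on the same strand overlap FEN1, so that shared reads are uncertain. LIG1, the ligase that joins the fragments, was at 0.32 ± 0.31, adjusted p = 0.429 untreated and 0.63 ± 0.31, adjusted p = 0.199 in copper. It rose in both without the libraries that stood apart, at 0.98 ± 0.17, adjusted p = 1.60e-05 and 0.64 ± 0.17, adjusted p = 0.00219.

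The ribonucleotide reductase subunits RRM1 and RRM2, which make deoxyribonucleotides, had their highest levels in KO copper libraries. RRM1 was at 362, 326 and 321 CPM in ATP7B KO libraries given copper and 40.2, 67.6 and 244 CPM in untreated ones. The wild type libraries held 39.5, 89.8 and 136 CPM with copper and 94.4, 105 and 96.6 CPM without. The KO copper libraries were above all others, and the libraries that stood apart were among the lowest. KO untreated replicate 3 was above every wild type library. RRM1 rose in KO cells in copper against wild type (log2 fold change 1.89 ± 0.54 SE, adjusted p = 0.036) and with copper in KO cells (1.65 ± 0.53, adjusted p = 0.0319), and was at 0.11 ± 0.52, adjusted p = 0.881 between the lines untreated. The first call was lost on leaving out any 1 of ATP7B KO copper replicates 1, 2 and 3, wild type copper replicates 1 and 2 and wild type untreated replicates 1, 2 and 3 (adjusted p from 0.0584 to 0.121), and the second on leaving out any 1 of ATP7B KO copper replicates 1, 2 and 3 and ATP7B KO untreated replicates 1 and 2 (adjusted p from 0.0633 to 0.103). Without the libraries that stood apart the differences were 1.48 ± 0.13, adjusted p = 1.90e-10, 0.64 ± 0.15, adjusted p = 0.00112 and 1.11 ± 0.14, adjusted p = 6.61e-07 in the same order.

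RRM2 was at 169, 165 and 177 CPM in ATP7B KO copper libraries and 35.3, 71.7 and 119 CPM in ATP7B KO untreated libraries. Levels in wild type cells were 38.4, 71.9 and 65.1 CPM in copper and 68.3, 72.9 and 62.9 CPM untreated. Again the KO copper libraries were above all others, and KO untreated replicate 3 was above every wild type library. RRM2 rose in KO cells in copper against wild type (log2 fold change 1.51 ± 0.34 SE, adjusted p = 0.0117) and with copper in KO cells (1.29 ± 0.34, adjusted p = 0.0117), and was at 0.02 ± 0.33, adjusted p = 0.964 untreated. The call against wild type was lost on leaving out wild type copper replicate 1 (adjusted p = 0.0501), and that with copper in KO cells with only the groups compared (adjusted p = 0.0613). Without the libraries that stood apart the differences were 1.23 ± 0.12, adjusted p = 1.61e-10, 0.69 ± 0.14, adjusted p = 0.000131 and 0.61 ± 0.14, adjusted p = 0.000703 in the same order. TYMS, which makes thymidylate, was at 95.7 ± 12 CPM in ATP7B KO copper and 126 ± 49 CPM in ATP7B KO untreated libraries, against 85.5 ± 24.6 CPM in wild type copper and 128 ± 4.98 CPM in wild type untreated libraries (mean ± SD, n = 3). TYMS gave no call with all libraries, and ENOSF1 and TYMSOS overlap it on the other strand. Without the libraries that stood apart, the log2 fold change of TYMS with copper was -0.69 ± 0.14 SE in KO cells and -0.315 ± 0.12 in wild type cells.

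**Figure D3:**
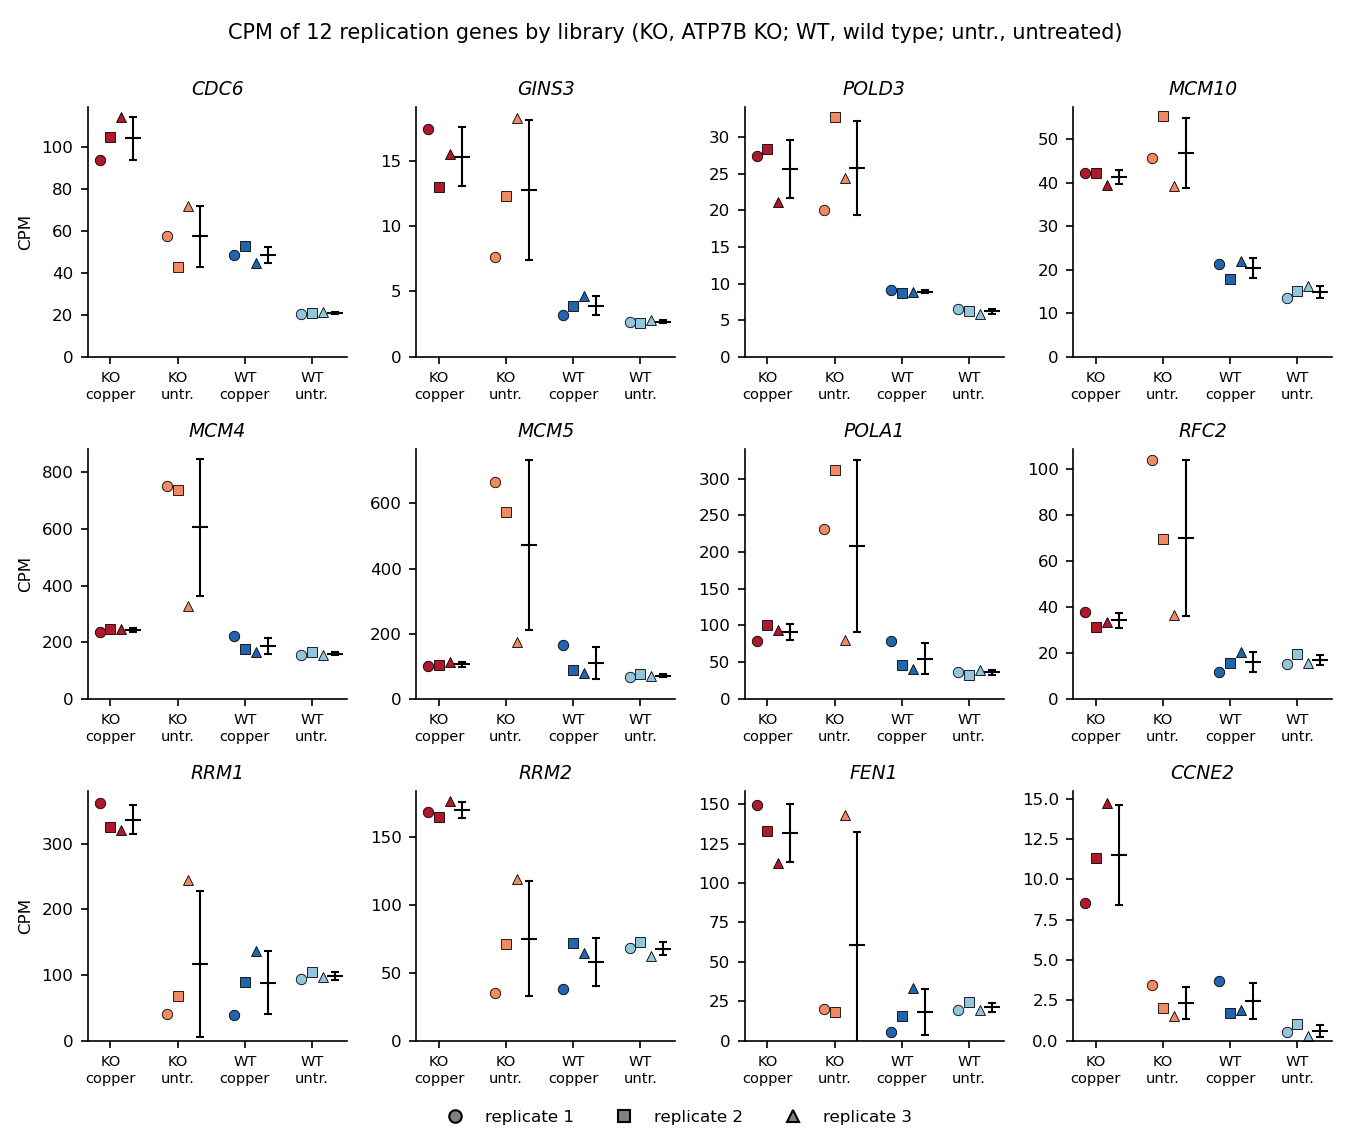
CPM in each library for 12 replication genes, with the group mean and SD (n = 3) as a bar, cut at 0 for FEN1. The top row holds genes higher in ATP7B KO than in wild type cells in both treatments, the middle row genes whose highest levels lie in ATP7B KO untreated replicates 1 and 2, and the bottom row genes whose mean over all 3 libraries is highest in ATP7B KO cells given copper.

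CCNE2, which encodes a cyclin E that drives entry into S phase, was low in all groups and highest in KO copper. It was at 8.55, 11.3 and 14.7 CPM in ATP7B KO copper libraries and 3.46, 2.05 and 1.53 CPM in ATP7B KO untreated libraries, against 3.74, 1.74 and 1.94 CPM in wild type copper and 0.527, 1.04 and 0.281 CPM in wild type untreated libraries. The groups did not overlap in any of the 4 pairwise comparisons. CCNE2 rose in KO cells in copper (log2 fold change 2.20 ± 0.45 SE, adjusted p = 0.00771) and with copper in KO cells (2.48 ± 0.48, adjusted p = 0.00248), and both calls held in all 19 alternatives. It was at 1.90 ± 0.60, adjusted p = 0.0518 with copper in wild type cells and at 1.61 ± 0.64, adjusted p = 0.0713 between the lines untreated. The wild type untreated libraries held few reads of it, with 3 counts equal to 0.791, 0.783 and 0.842 CPM there. In KO untreated libraries 3 counts equal 2.08, 3.07 and 0.915 CPM, and in wild type copper libraries 1.60, 1.31 and 1.16 CPM. The lack of overlap among these groups therefore rests on few reads. INTS8 overlaps CCNE2 on the other strand.

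CCNE1, the other cyclin E, was at 31.3, 23 and 29.1 CPM in ATP7B KO copper libraries and 22.2, 20.5 and 43 CPM in ATP7B KO untreated libraries. Wild type libraries were at 7.47, 14.8 and 10.5 CPM in copper and 21.1, 24 and 23.3 CPM untreated. The wild type copper libraries were below all others. CCNE1 rose in KO cells in copper (log2 fold change 1.31 ± 0.31 SE, adjusted p = 0.0149) and fell with copper in wild type cells (-1.03 ± 0.30, adjusted p = 0.0398), and was at 0.05 ± 0.29, adjusted p = 0.906 with copper in KO cells. The first call was lost on leaving out any 1 of ATP7B KO copper replicates 1 and 3 and wild type copper replicate 1 (adjusted p from 0.0547 to 0.0734), and the second on leaving out any 1 of ATP7B KO copper replicates 1, 2 and 3, wild type copper replicates 1 and 3 and wild type untreated replicates 1, 2 and 3 (adjusted p from 0.0573 to 0.135). Between the lines untreated it was at 0.23 ± 0.29, adjusted p = 0.558 with all libraries and at 0.71 ± 0.21, adjusted p = 0.0075 without those that stood apart. E2F1 was at 64.1, 51.5 and 64.1 CPM in ATP7B KO copper libraries and 94.2, 97.3 and 85.4 CPM in ATP7B KO untreated libraries. In wild type cells it was at 37.4, 43.1 and 43 CPM with copper and 48.5, 51.7 and 52.5 CPM untreated. The KO untreated libraries were above all others. E2F1 rose in untreated KO cells (log2 fold change 0.73 ± 0.18 SE, adjusted p = 0.00955) and fell with copper in KO cells (-0.51 ± 0.18, adjusted p = 0.044). The first call was lost on leaving out wild type untreated replicate 1 (adjusted p = 0.0501). The second was lost on leaving out any 1 of ATP7B KO copper replicates 1, 2 and 3, ATP7B KO untreated replicates 1 and 2, wild type copper replicates 2 and 3 and wild type untreated replicates 1, 2 and 3 (adjusted p from 0.0571 to 0.173), and also without the libraries that stood apart (-0.33 ± 0.16, adjusted p = 0.0993).

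Copper moved the replication genes in no common direction. In KO cells 6 of 37 rose (CDC6, RFC3, RPA2, RRM1, RRM2 and CCNE2) and 4 fell (MCM3, MCM4, MCM5 and E2F1), with a median log2 fold change of 0.35, while 15.2% of all genes rose and 18.5% fell. In wild type cells 3 rose (CDC6, ORC1 and RFC3) and 2 fell (RPA3 and CCNE1), with a median of -0.105, while 8.23% of all genes rose and 6.68% fell. The members' shares, 16.2% and 10.8% in KO and 8.11% and 5.41% in wild type cells, lay near or below those of all genes. The 2 comparisons share no library, and log2 fold changes were above 0 in both lines for 11 of the 37 genes (29.7%) and below 0 in both for 7 (18.9%), against 27.1% and 28.3% of all genes tested. Without KO untreated replicate 3, 14 rose and 7 fell in KO cells, and 9 rose and 2 fell in wild type cells, while 29.9% and 28.2% of all genes in KO and 17.6% and 15.5% in wild type cells did. The number that rose in KO cells was 3 without KO untreated replicate 1 or any 1 KO copper replicate (9.37% to 10.6% of all genes). With copper in wild type cells, 1 rose without wild type copper replicate 2 or any 1 wild type untreated replicate (3.65% to 4.67% of all genes), and 0 or 1 fell without any 1 of the wild type or KO copper replicates or the wild type untreated replicates (2.67% to 5.15% of all genes).

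MCM3, MCM4 and MCM5, which had the highest KO untreated means of the 37 genes with all libraries, were 3 of the 4 that fell with copper in KO cells. MCM3 fell (log2 fold change -1.01 ± 0.18 SE, adjusted p = 0.00138) and MCM5 fell (-2.07 ± 0.44, adjusted p = 0.0041) in all 19 alternatives, at -0.997 ± 0.11, adjusted p = 5.02e-09 and -0.55 ± 0.14, adjusted p = 0.00127 without the libraries that stood apart. MCM4 fell with all libraries (-1.22 ± 0.29, adjusted p = 0.00814), and without those that stood apart it was at -0.25 ± 0.12, adjusted p = 0.0826. Without them 7 of the 37 genes rose and 8 fell with copper in KO cells, and 6 rose and 6 fell in wild type cells, where the median became 0.14. Of all genes, 19.1% rose and 20.5% fell in KO cells and 20.4% rose and 19.6% fell in wild type cells in that fit.

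The copper effect of MCM5 differed between the lines. It was the 1 replication gene called for the difference of the copper effects, ATP7B KO minus wild type (log2 fold change -2.74 ± 0.61 SE, adjusted p = 0.038), with 0 of 37 called above 0 by edgeR and by limma voom and 2 by DESeq2. At an unadjusted p under 0.05, 4 of 37 lay above 0 and 5 below 0, against 1518 and 2088 of all 11051 genes. By adjusted p, 1.26% of all genes were called above 0 and 3.67% below 0 in that comparison. Without KO untreated replicate 3, 12 genes were called above 0 and 8 below 0, while 25.7% and 25.8% of all genes were. The MCM5 call was lost on leaving out any 1 of ATP7B KO copper replicates 1, 2 and 3, ATP7B KO untreated replicates 1 and 2, wild type copper replicates 1 and 2 and wild type untreated replicates 1, 2 and 3 (adjusted p from 0.0657 to 0.115). MCM4 (-1.49 ± 0.41, adjusted p = 0.0541), RRM2 (1.49 ± 0.47, adjusted p = 0.0703) and RPA3 (1.45 ± 0.47, adjusted p = 0.0755) came next in order of adjusted p. Without the libraries that stood apart the difference was -0.83 ± 0.18, adjusted p = 0.00258 for MCM5, -0.48 ± 0.15, adjusted p = 0.0441 for MCM3 and 0.62 ± 0.19, adjusted p = 0.0295 for RRM2, the 3 genes called in that fit, where 3.78% of all genes were called above 0 and 5.0% below 0.

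Other genes of the pathway are given from lists drawn up by function, to be read against the shares of all genes, of which 17.9% rose and 14.0% fell in untreated KO cells and 5.77% rose and 8.03% fell in copper. Of 20 further fork genes, 6 rose (30%) and 2 fell (10%) in untreated KO cells and 3 rose in copper (15.0%; medians 0.52 and 0.63). CLSPN, which encodes the fork protein claspin, rose in both (log2 fold change 1.98 ± 0.18 SE, adjusted p = 4.05e-05 untreated, and 1.60 ± 0.18, adjusted p = 0.000199 in copper). Of 16 further licensing and activation genes, 2 rose in untreated KO cells (12.5%, MCM8 and MCM9, helicase genes that act in recombination). In copper 0 were called by edgeR, and 3 had an unadjusted p under 0.05, against 3254 of all 11051 genes. Of 8 further genes of nucleotide metabolism, 4 rose untreated (50%) and 3 in copper (37.5%), among them the thymidine kinase gene TK1 (log2 fold change 1.18 ± 0.19 SE, adjusted p = 0.00126 untreated, and 0.83 ± 0.19, adjusted p = 0.0119 in copper).

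Of 8 genes of chromatin assembly at the fork, 3 rose in untreated KO cells and 3 in copper (37.5% each). DNMT1, the maintenance DNA methyltransferase, rose in both (log2 fold change 0.52 ± 0.17 SE, adjusted p = 0.0363 untreated, and 0.72 ± 0.17, adjusted p = 0.0159 in copper). Of 26 tested G1/S regulators, 8 rose (30.8%) and 1 fell untreated and 6 rose (23.1%) and 1 fell in copper. CCND1, which encodes cyclin D1, was at 252, 247 and 251 CPM in the copper libraries of ATP7B KO cells and 351, 387 and 499 CPM in their untreated libraries. Its wild type levels were 54.4, 96.7 and 101 CPM in copper and 153, 141 and 128 CPM untreated. KO libraries were above wild type libraries in both treatments, and CCND1 rose in KO cells untreated (log2 fold change 1.42 ± 0.23 SE, adjusted p = 0.00126) and in copper (1.54 ± 0.23, adjusted p = 0.0012). CDKN1A, which encodes the inhibitor p21, gave no call in any of the 5 comparisons. Of 18 tested checkpoint and repair genes, 8 rose (44.4%) and 1 fell untreated and 3 rose (16.7%) and 1 fell in copper.

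Of 30 mitosis genes, 10 fell with copper in KO cells (33.3%, against 18.5% of all genes) and 14 in wild type cells (46.7%, against 6.68% of all genes). Against wild type, 3 rose and 3 fell in untreated KO cells and 3 rose in KO cells in copper. At an unadjusted p under 0.05, 2 lay above 0 with copper in KO cells and 0 in wild type cells, against 2355 and 1685 of all 11051 genes. Their summed level was 2986 to 3010 CPM in KO copper and 4235 to 7657 CPM in KO untreated, against 2492 to 2814 CPM in wild type copper and 6140 to 6653 CPM in wild type untreated libraries. Copper libraries were below untreated libraries in each line, with no overlap. The summed level of the replication genes in wild type copper libraries was at most 1645 CPM, against at least 1657 CPM in wild type untreated libraries, so that the 2 ranges nearly meet. These sums do not include the scaling factors of the fit, which were 0.9425 to 0.9898 in wild type copper and 0.9719 to 0.9937 in wild type untreated libraries. Divided by these factors, wild type copper replicate 3 (1645 CPM, factor 0.9611) comes above wild type untreated replicate 1 (1657 CPM, factor 0.9773). So small a gap therefore does not hold after that scaling. MKI67, the proliferation marker, was at 48.8, 66.6 and 70.9 CPM in ATP7B KO libraries given copper and 239, 275 and 194 CPM in untreated ones. The wild type libraries held 43.8, 39.6 and 35.6 CPM with copper and 103, 91.4 and 109.5 CPM without. MKI67 fell with copper in KO cells (log2 fold change -1.82 ± 0.21 SE, adjusted p = 0.000124) and in wild type cells (-1.32 ± 0.21, adjusted p = 0.00201).

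Replication-dependent histone genes are transcribed in S phase. Of 10 tested, 5 fell (50%, against 18.5% of all genes) and 1 rose with copper in KO cells, 1 rose with copper in wild type cells, and 5 fell in KO against wild type cells in copper (50%, against 8.03% of all genes). Their summed level was 806.4 to 1106 CPM in KO copper and 2037 to 6132 CPM in KO untreated, against 2029 to 3445 CPM in wild type copper and 3340 to 4317 CPM in wild type untreated libraries. Within KO untreated and wild type copper groups, the libraries that stood apart held the highest sums. Most histone messages lack a poly(A) tail, so that a kit that primes on poly(A) counts the minor polyadenylated part.

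**Figure D4:**
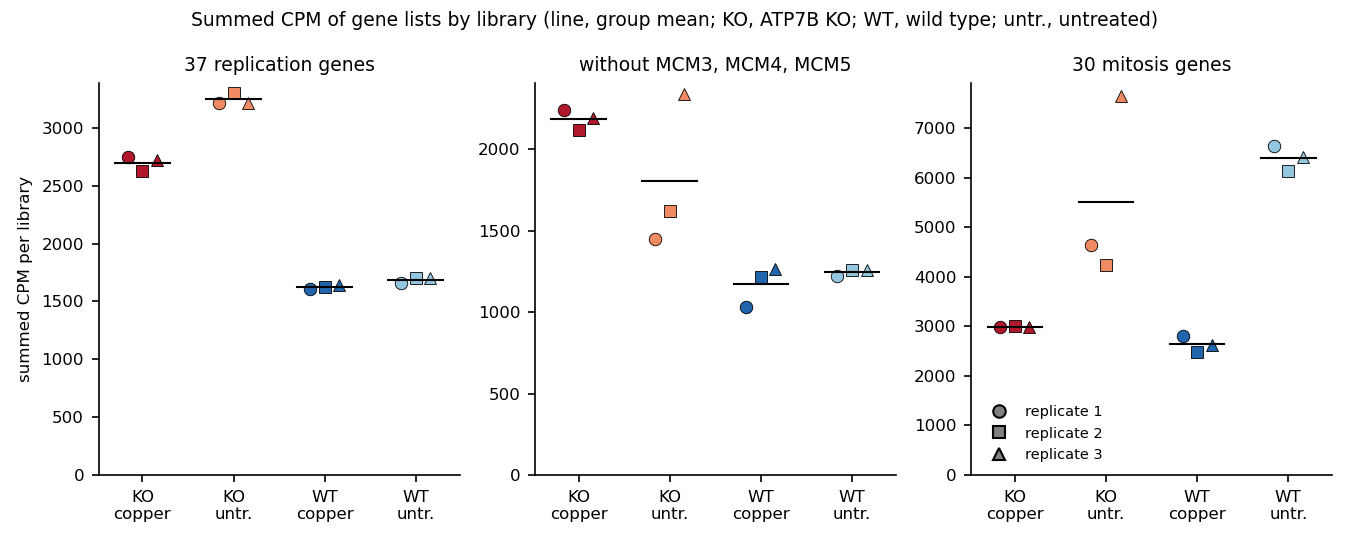
Summed CPM per library of the 37 replication genes (left), of the same genes without MCM3, MCM4 and MCM5 (middle) and of 30 mitosis genes (right), with the group mean as a line. Replication genes sum to 2628 CPM or more in ATP7B KO libraries and to 1703 CPM or less in wild type libraries, while mitosis genes are lower in copper than in untreated libraries of each line.

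By group mean, 19 of the 37 replication genes were highest in KO copper cells, 14 in KO untreated, 0 in wild type copper and 4 in wild type untreated cells. The lowest mean lay in KO copper cells for 2 genes and in KO untreated cells for 3, against 17 in wild type copper and 15 in wild type untreated cells. With the libraries that stood apart left out, so that KO untreated replicate 3 stands for its group, 14 were highest in KO copper, 20 in KO untreated, 1 in wild type copper and 2 in wild type untreated cells, and 1, 0, 14 and 22 were lowest in the same order. Either way RRM1, RRM2 and CCNE2 were highest in KO copper cells and MCM3, MCM4, MCM5, RFC2 and E2F1 in KO untreated cells. FEN1 was highest in KO copper cells with all libraries and in KO untreated cells without those that stood apart, and POLA1 the other way round.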

How the data were processed

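Total RNA of the 12 HepG2 samples entered a 3′ mRNA library kit (QuantSeq), per the labels' protocols. Reads were aligned to hg19 and counted with tools listed as STAR 2.3.0 and HTSeq, per the submitters' processing notes. Which annotation release, strand setting and filters were used is not given in the sources. Each library's file holds whole-number counts per gene ID, deposited without normalization.

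Symbols came from gene name tables and GENCODE v29, used for names, chromosomes and overlaps alone, and named 45776 of 47634 IDs (99.5% of counts). CPM is the count over the library's total, so 3 counts equal 0.783 to 3.07 CPM. These figures convert counts to CPM and measure no error, and the counts were made without molecular identifiers. The test was edgeR 4.0.16 (R 4.3.3). Its filterByExpr left 11051 genes, libraries were scaled by TMM (trimmed mean of M values), and a robust quasi-likelihood fit of 4 group means used all 12 libraries (biological coefficient of variation 29.1%). P-values were adjusted by Benjamini-Hochberg over the 11051 genes, and "rose", "fell" and "called" mean an adjusted p under 0.05. SE is the log2 fold change over the square root of F. The fit was tested on simulated counts drawn without libraries that stand apart, so that test does not cover their effect on the calls.

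The members and lists were chosen with earlier results of these data known. Any member may be named. Of each other list, up to 4 genes with the smallest adjusted p in a comparison may be named, with CDKN1A, CCND1, MYC, MKI67 and ATP7B. Alternatives were relative log expression scaling, no filter, DESeq2 1.42.0, limma voom (limma 3.58.1), a replicate block, only the groups compared, each library left out, and the 3 libraries that stood apart left out, as an earlier analysis had shown. Promoters were read from RefSeq sequence of another build than the counts.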

Additional observations from a re-analysis of the deposited data

Results flagged for a closer look

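MCM5 responded differently to copper in the 2 lines, by the test of the difference itself. The log2 difference of the copper effects, ATP7B KO minus wild type, was -2.74 ± 0.61 (SE, adjusted p = 0.038 by edgeR's quasi-likelihood test with Benjamini-Hochberg adjustment). All 3 KO copper libraries were below all 3 KO untreated libraries, and all 3 wild type copper libraries were above all 3 wild type untreated libraries. The call was lost in 12 of 18 alternatives, with adjusted p up to 0.115, and the difference was -0.83 without the libraries that stood apart.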

How the results depend on the processing

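All 46 calls of replication genes in the 5 comparisons kept their direction in every alternative run, and 20 of them were called in all. Of 3472 single-gene alternatives, 3083 kept their sign and their side of the threshold, 109 changed sign with neither value called, 156 lost the call, 118 gained it and 6 changed sign with 1 of the values called. Log2 fold changes of the last kind were those of MCM2 (-0.63), PCNA (-0.37), RPA3 (-0.59) and LIG1 (-0.63) with copper in KO cells and of MCM2 (0.82) in untreated KO cells, all without the libraries that stood apart, and of RRM1 in untreated KO cells, at -0.95 without KO untreated replicate 3 (0.51 without replicate 1). Of the sign changes with no call, 34 came without the libraries that stood apart, among them POLA1 (0.35), RFC2 (0.095), MCM6 (-0.21) and GINS2 (-0.23) with copper in KO cells and RFC4 (0.20) and RPA2 (0.18) in untreated KO cells. The cause was not tested.

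With all 12 libraries, 6 rose and 4 fell with copper in KO cells. With only the groups compared in the fit, 2 rose and 2 fell there, and without the libraries that stood apart 8 fell. Copper raised 3 and lowered 2 in wild type cells. With no filter 1 rose there, with the replicate block 1 fell, and without the libraries that stood apart 6 rose and 6 fell. In untreated KO cells, 15 rose and 1 fell against wild type. With only the groups compared 9 rose and 0 fell, with no filter 2 fell, and without the libraries that stood apart 26 rose and 0 fell. In KO cells in copper, 14 rose, and 23 rose without the libraries that stood apart. For the difference of the copper effects, 0 lay above and 1 below 0. The counts above 0 were 6 with no filter, 2 with DESeq2 and 1 without the libraries that stood apart. The counts below 0 were 2 with relative log expression scaling, 3 with no filter, 4 with DESeq2, 0 with limma voom, 0 with the replicate block and 2 without the libraries that stood apart. The set of genes tested was the same with relative log expression scaling, limma voom and the replicate block and differed in the other alternatives. Shares of all genes called moved too. With only the groups compared, 7.48% rose and 10.4% fell with copper in KO cells, and 8.47% and 4.76% in untreated KO cells. With no filter, 4.21% rose with copper in wild type cells and 8.36% fell in untreated KO cells. With the replicate block, 6.23% fell with copper in wild type cells. For the difference of the copper effects, 4.37% of all genes were called above and 5.4% below 0 with no filter, and 4.97% and 11.1% with DESeq2. Below 0, the shares were 4.91% with relative log expression scaling, 0.842% with limma voom and 0.715% with the replicate block. The median of the 37 genes turned to 0.14 with copper in wild type cells and to -0.17 for the difference of the copper effects without the libraries that stood apart.

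Leaving out 1 library at a time gave 3 to 14 that rose and 3 to 7 that fell with copper in KO cells, 1 to 9 and 0 to 2 in wild type cells, 9 to 16 and 0 to 6 in untreated KO against wild type cells, 8 to 20 and 0 in copper, and 0 to 12 above and 0 to 8 below 0 for the difference of the copper effects.

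Of 18 correlations of deviations between same-numbered libraries, 3 were over 0.1 (range -0.255 to 0.641). Between wild type copper and KO untreated they were 0.547 for replicate 1 and 0.641 for replicate 3. These groups hold the libraries that stood apart, and the labels do not say what a replicate number shares. Whether equal numbers pair the samples therefore cannot be told from these values. With the replicate block, the calls of RFC3 and E2F1 with copper in KO cells, CCNE1 with copper in wild type cells and MCM5 for the difference of the copper effects were lost. With no filter, those of MCM3, RFC3 and E2F1 in untreated KO cells and of MCM10 and GINS2 in KO cells in copper were lost. So were those of ORC1 and RFC3 with copper in wild type cells and of RFC3 and E2F1 with copper in KO cells. With only the groups compared, those of MCM3, CDC45, GINS4, ORC6, RFC3, RPA3 and E2F1 in untreated KO cells were lost. The same setting lost those of MCM4, RFC3, RPA2, RRM1, RRM2 and E2F1 with copper in KO cells. The median of all genes moved by less than 0.1 on the log2 scale under each scaling. Depth limits what can be detected most for genes with few counts, such as POLE2 and PRIM1 (117 and 201 counts over the 12 libraries).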
